A study of Mus musculus with 6 samples.

Results

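Lyz1 and Lyz2 are the mouse genes for lysozyme, and they were followed here in monocytic myeloid-derived suppressor cells (M-MDSCs) as 2 of the 34745 genes in the deposited table. They were taken by gene name but chosen by their counts and FPKM values in this same comparison, whose result was already known, so the difference between the genotypes is given as a description without a test. Lysozyme is a secreted enzyme that cuts the peptidoglycan wall of bacteria. Lyz2, also called M lysozyme, is the form of macrophages, monocytes and granulocytes, and Lyz1, also called P lysozyme, is known from the Paneth cells of the intestine. The promoter of Lyz2 is the one generally used to drive Cre recombinase in myeloid cells, and in the common line of that kind Cre sits in the Lyz2 gene itself.

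M-MDSCs were induced from mouse bone marrow with GM-CSF and IL-6, sorted and sequenced as 3 WT and 3 mTOR-/- libraries. The mTOR-/- mice (Lyz-mTOR) came from a cross of mTOR flox/flox with Lyz-Cre mice, which puts Cre under a lysozyme promoter. The paper's primer Lyz-common, used to genotype the Lyz-Cre allele, matches bases upstream of Lyz2 in full. It does not match the aligned bases upstream of Lyz1. The genotyped allele was therefore at Lyz2, a gene whose counts are compared here. Whether that allele changed the Lyz2 counts was not tested. The WT mice were purchased, and the sources do not say that they carried Cre or a floxed allele. The number of Cre copies and the age of the mice are not given in the sources used here. The effects of the Lyz-Cre allele, of any difference in background and of mTOR loss therefore cannot be told apart in these libraries.

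The authors counted 12317507 to 12903191 reads on genes in the mTOR-/- libraries and 14066578 to 14768126 in the WT libraries. Mtor, the targeted gene, had 883 to 983 counts in the mTOR-/- libraries and 875 to 980 in the WT libraries. Between genotypes the log2 fold change was 0.15 (SE 0.11, edgeR adjusted p = 0.442), so the whole-gene count did not separate the labels. The paper reports that mTOR depletion was verified in MDSCs and that the mice were genotyped by PCR. Single exons of Mtor were not counted here, so depletion in these libraries was not tested. Of the genes behind the sorting gate, Itgam (CD11b) has a pair of overlapping rows in the table, and the more abundant, ENSMUSG00000030786, stood at 832 ± 191 CPM (counts scaled to a common library size; SD, n = 3) in mTOR-/- and 927 ± 49.9 CPM in WT libraries (SD, n = 3). The other Itgam row, ENSMUSG00000108596, was at 322 ± 141 CPM in mTOR-/- and 321 ± 34.3 CPM in WT libraries (SD, n = 3). Ly6c2, which encodes Ly6C, was at 87.3 ± 16.0 CPM in mTOR-/- and 174 ± 55.5 CPM in WT libraries (SD, n = 3). Ly6g, the granulocyte antigen gated against, was at 13.3 ± 2.31 CPM in mTOR-/- and 2.77 ± 2.13 CPM in WT libraries (SD, n = 3). The mTOR-/- replicate 3 library correlated less with the other mTOR-/- libraries (Pearson r across genes 0.955 and 0.952) than these did with each other (0.973), and Lyz1 and Lyz2 are therefore also given without it. A gene was called when its adjusted p was under 0.05 and its fold change at least 2 (edgeR's quasi-likelihood test), which held for 212 of 12537 tested genes, or 1.69%. By direction 1.04% of the tested genes were called higher and 0.654% lower in mTOR-/- libraries, and 4.04% had an adjusted p under 0.05 at any fold.

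The lysozyme genes lie next to each other on the reverse strand of chromosome 10. The deposited table places Lyz2 (ENSMUSG00000069516) at chr10:117277334-117282274 and Lyz1 (ENSMUSG00000069515) at chr10:117287796-117292868, on the build GRCm38 (mm10). In GENCODE M21 the genes are 5475 bases apart, and each has 4 exons and 1 protein-coding transcript. The transcripts, of 1263 bases for Lyz1 and 1316 bases for Lyz2, were identical at 1211 of 1317 aligned positions (92.0%), and 49 of the 55 gap positions fell in exon 1, where the annotated Lyz2 transcript starts further upstream. The coding sequences were identical at 425 of 447 positions, or 95.1%. Exon 3 was the same in both genes over all 79 bases, and exon 2 differed at 6 of 165 bases. Exon 2 is shown because it is wholly coding and because it is at bases such as these that a read can be assigned to one gene or the other. The capitals mark the bases that differ between the genes, and both sequences are read 5′ to 3′ on the reverse strand.
Lyz1 exon 2, chr10:117291029-117291193: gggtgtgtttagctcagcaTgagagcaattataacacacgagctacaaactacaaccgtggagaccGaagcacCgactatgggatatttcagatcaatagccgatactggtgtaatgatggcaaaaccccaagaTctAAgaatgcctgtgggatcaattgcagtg
Lyz2 exon 2, chr10:117280641-117280805: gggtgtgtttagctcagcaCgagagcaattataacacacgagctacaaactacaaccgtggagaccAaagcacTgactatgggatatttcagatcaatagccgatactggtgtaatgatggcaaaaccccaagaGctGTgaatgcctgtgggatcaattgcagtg

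These transcripts are close enough to share short stretches, but no long ones. None of the 1167 windows of 150 bases in the Lyz2 transcript occurred in the Lyz1 transcript. The windows differed from the aligned Lyz1 bases at 1 to 54 positions, with a median of 6. At 100 bases 1.97% of the Lyz2 windows were also in Lyz1, at 75 bases 5.96%, and at 50 bases 15.4%. How the authors' counting treated reads that fit both genes is not given in the sources used here, so the division of reads between Lyz1 and Lyz2 is uncertain, above all for Lyz1, which had few reads.

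The upstream sequences were less alike than the genes. RefSeq's windows for both genes on GRCm38.p6 reach from 250 bases before the start to 50 bases after it. Their first 201 bases, which end before any annotated exon of either gene, were identical at 151 of 203 aligned positions (74.4%), with 48 mismatches and 4 gap positions. The other 99 bases of the windows, up to and past the start, differed at 1 position. The stretches are shown because the genes beside them stood at very different levels, and the capitals mark the bases that the alignment did not match.
Lyz1 upstream, chr10:117292918-117293118: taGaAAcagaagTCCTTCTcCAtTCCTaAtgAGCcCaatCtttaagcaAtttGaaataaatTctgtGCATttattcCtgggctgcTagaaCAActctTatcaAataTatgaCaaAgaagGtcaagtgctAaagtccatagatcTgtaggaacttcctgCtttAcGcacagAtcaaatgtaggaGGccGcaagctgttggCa
Lyz2 upstream, chr10:117282322-117282522: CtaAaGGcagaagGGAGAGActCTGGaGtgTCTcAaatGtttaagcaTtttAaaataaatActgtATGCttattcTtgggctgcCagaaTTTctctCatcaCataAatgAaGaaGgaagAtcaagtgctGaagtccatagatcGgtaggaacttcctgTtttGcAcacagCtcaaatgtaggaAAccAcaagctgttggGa

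Letters of motifs that myeloid factors are known to bind were looked for on both strands of the windows. AGGAAG, an ETS-type core, occurred at 99 bases before the start in both genes, on the reverse strand, and again at 137 bases before the start in Lyz2. It was present in 35.4% of the 32851 RefSeq windows of this length. TTGCNNAA, a C/EBP-type motif, occurred once in the Lyz1 window, at 209 bases before the start, and not in that of Lyz2, against 10.8% of all windows. TGANTCA, an AP-1-type motif, and TATAAA were in neither, against 7.81% and 13.6% of all windows. No motif overlapped another, and a match in letters is not a measured site.

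Lyz2 was among the most abundant mRNAs of these cells, and its level was lower in every mTOR-/- library than in every WT library. The 3 WT libraries had 32743, 57236 and 50648 Lyz2 counts, and the 3 mTOR-/- libraries had 14675, 11695 and 12718. After normalization by library (TMM) these were 2327, 3910 and 3607 CPM in WT libraries and 1196, 902.8 and 972.9 CPM in mTOR-/- libraries. WT replicate 1 was the lowest of its group, and it was still 1.95 times the highest mTOR-/- library, mTOR-/- replicate 1. The means were 3280 ± 840 CPM in WT and 1020 ± 153 CPM in mTOR-/- libraries (SD, n = 3 each), 3.20-fold lower in mTOR-/-, with a log2 fold change of -1.68 (standard error 0.20). Groups that did not overlap, with mTOR-/- lower, were also found for 13.9% of the tested genes, and 2.27% were at least 2-fold lower. Within its group Lyz2 varied by a coefficient of 25.6% in WT and 15% in mTOR-/- libraries. The log2 fold change of Lyz2 lay between -1.88 and -1.54 with any 1 library omitted, and it was -1.65 without mTOR-/- replicate 3.

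**Figure D1:**
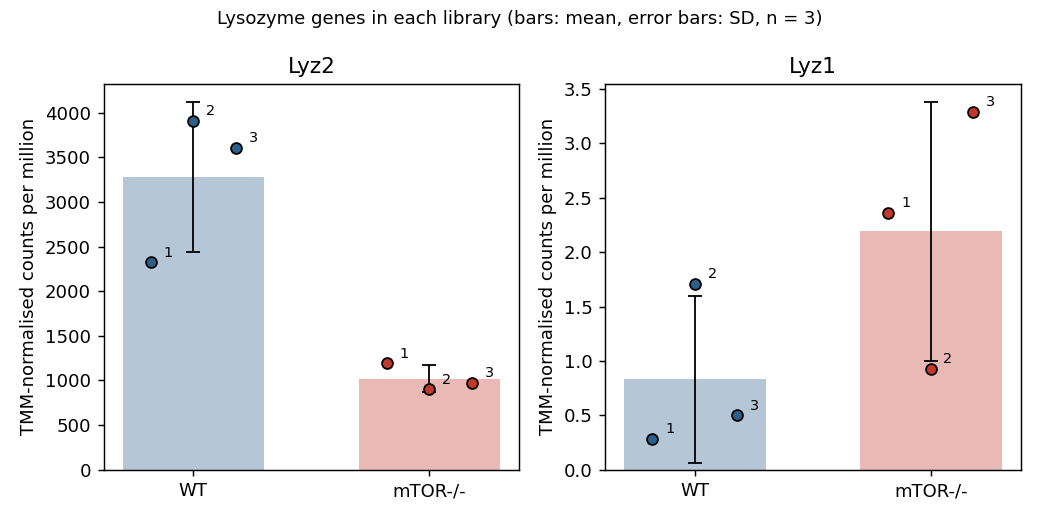
TMM-normalised CPM of Lyz2 (left) and Lyz1 (right) in each library, with points numbered by replicate, bars for the group mean and error bars for the SD (n = 3). The Lyz2 points of WT (2327 to 3910 CPM) lie above those of mTOR-/- (902.8 to 1196 CPM), while the Lyz1 points of the groups overlap and the highest of them is 3.289 CPM.

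Per length, Lyz2 also stood near the top of each library, and it moved down the order in the mTOR-/- libraries. The deposited FPKM values (reads scaled to gene length and to the reads counted in the library) were 1839, 3061 and 2808 in WT libraries. They placed Lyz2 at rank 6, 5 and 6 of all genes. In the mTOR-/- libraries Lyz2 had 941.1, 719.3 and 778.6 FPKM and ranks 22, 37 and 26. It had therefore left the first 20 in every mTOR-/- library, though it stayed among the 40 highest genes. As a share of all counted reads, Lyz2 took 0.233%, 0.388% and 0.355% in WT libraries and 0.119%, 0.0911% and 0.0986% in mTOR-/- libraries. These FPKM values follow from the counts with 1 gene length, 1266 bases for Lyz2 and 1264 bases for Lyz1, so they hold no measurement beyond the counts.

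Among abundant genes a change of this size was uncommon, which describes a gene chosen with this comparison already known. Ranked by mean CPM over the 6 libraries, Lyz2 was number 15. Of the 100 genes with the highest mean CPM, 1 was at least 2-fold lower in the mTOR-/- libraries, which was Lyz2, and 0 were at least 2-fold higher. The log2 fold changes of these 100 genes had a median of -0.18 and a highest value of 0.89. By the size of the log2 decrease alone, Lyz2 was number 89 of the 12537 tested genes. By the loss in CPM, at -2260 CPM, it ranked 4, after Ftl1 (-3680 CPM), the light chain of ferritin, Gpnmb (-3590 CPM), a transmembrane glycoprotein of macrophages, and Eef1a1 (-2710 CPM), a translation elongation factor. Each of these had a smaller log2 fold change than Lyz2, at -0.83, -0.70 and -0.44.

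**Figure D2:**
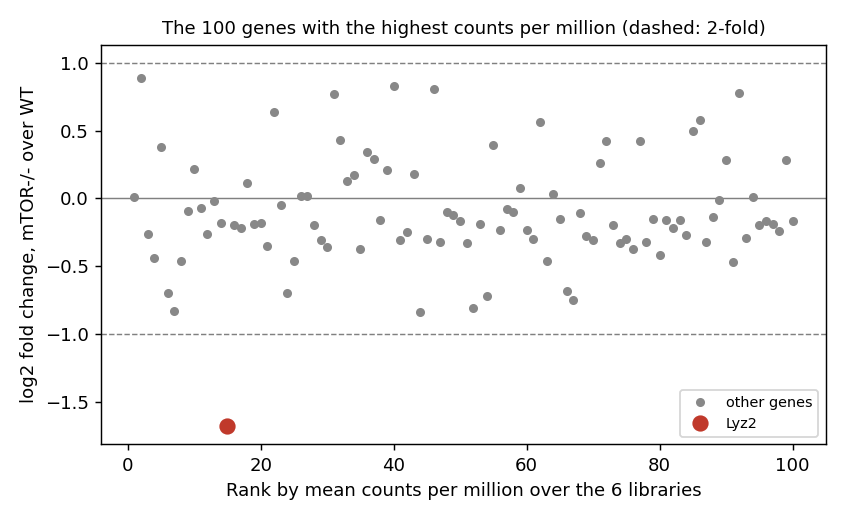
Log2 fold change of mTOR-/- over WT for the 100 genes with the highest mean CPM, plotted against their rank, with dashed lines at 2-fold. Lyz2, at rank 15 and -1.68, is the point below the lower dashed line, and no point lies above the upper one.

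Lyz1 was close to the limit of detection and did not follow Lyz2. It had 4, 25 and 7 counts in the WT libraries and 29, 12 and 43 counts in the mTOR-/- libraries. These were 0.2843, 1.708 and 0.4986 CPM in WT libraries and 2.364, 0.9264 and 3.289 CPM in mTOR-/- libraries. The groups overlapped, since WT replicate 2 was above mTOR-/- replicate 2, and WT replicate 1 was just over the floor of 3 counts, 0.213 CPM in that library. The means were 0.830 ± 0.767 CPM in WT and 2.19 ± 1.19 CPM in mTOR-/- libraries (SD, n = 3 each), a log2 fold change of 1.39 with a standard error of 0.75. Without WT replicate 2 the log2 fold change was 2.46, and without mTOR-/- replicate 3 it was 0.96, so its size rested on single libraries. Of all tested genes 50.6% had a log2 fold change above 0, and for 14.5% every mTOR-/- library was above every WT library. Lyz1 passed the filter on low counts, but by FPKM it ranked 8654 to 12465 among all genes.

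The relative use of the genes was therefore far apart within each library. Per length, Lyz2 was 8170, 2290 and 7220 times as high as Lyz1 in the WT libraries by FPKM, and 505, 973 and 295 times as high in the mTOR-/- libraries. Of the reads counted on either gene, Lyz1 took 0.0122%, 0.0437% and 0.0138% in WT libraries and 0.197%, 0.103% and 0.337% in mTOR-/- libraries. The exact binomial 95% intervals were 0.0283% to 0.0644% for WT replicate 2, the highest of its group, and 0.0530% to 0.179% for mTOR-/- replicate 2, the lowest of its group. These intervals overlapped although the shares themselves did not, and they cover counting error only, as PCR copies of a molecule are counted as separate reads. The mean share was 0.212% ± 0.118 in mTOR-/- and 0.0232% ± 0.0177 in WT libraries (SD, n = 3 each). Over the 3 libraries of a group this rested on 84 Lyz1 and 39088 Lyz2 reads in mTOR-/- and on 36 Lyz1 and 140627 Lyz2 reads in WT. The higher share in mTOR-/- combined a smaller number of Lyz2 reads with more Lyz1 reads. With the counts of both genes added and fitted as 1 gene, the log2 fold change was -1.68, as for Lyz2 alone.

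**Figure D3:**
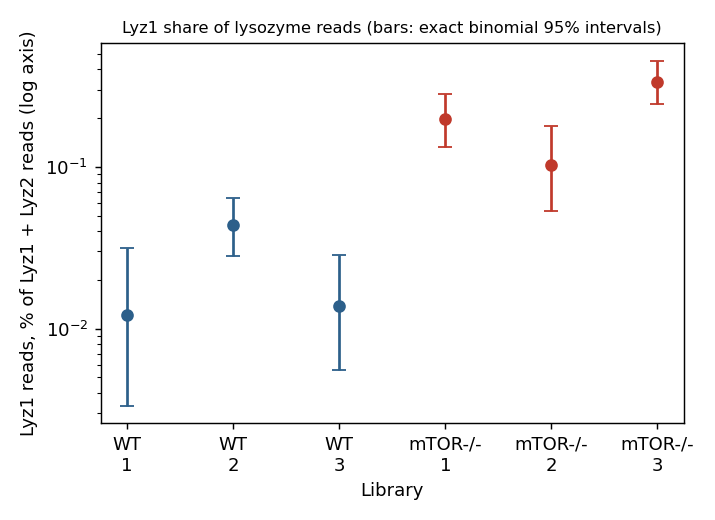
Lyz1 reads as a percentage of Lyz1 plus Lyz2 reads in each library on a log axis, with exact binomial 95% intervals as bars. The WT shares run from 0.0122% to 0.0437% and the mTOR-/- shares from 0.103% to 0.337%.

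Other genes of the lysozyme family were all but silent in both genotypes. Lyzl1, Lyzl6, Spaca3 and Spaca5, which are known from the male germ line, Lalba, the lactose synthase subunit of milk, and the goose-type lysozymes Lyg1 and Lyg2 had 0 counts in all 6 libraries. A count of 0 allows up to 3 counts, or 0.203 to 0.244 CPM depending on the library. Lyzl4 had 5 and 3 counts in WT replicates 2 and 3 and 0 in the other libraries. None of these 8 genes passed the filter, so apart from those 8 Lyzl4 reads the reads on lysozyme family genes listed here were on Lyz2 and, to a small extent, Lyz1.

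The genes around the lysozyme pair were examined because position was not used to choose the members. Within 500 kb on each side the table held 17 other genes, of which 8 were tested and 6 had 0 counts in every library. None of the 8 was called by edgeR or by DESeq2. As edgeR called 1.69% of all tested genes, a count of 0 among 8 says little about these genes. An unadjusted p under 0.05 was found for 2 of the 8 with either tool, against 21.2% of all tested genes with each tool. The log2 fold changes of the 8 lay between -0.30 and 0.27, with a median of -0.14 against 0 over all tested genes. The nearest tested genes were Cpsf6 and Yeats4, 51.8 kb and 52.8 kb from the pair. Cpsf6, a subunit of the machinery that cleaves the ends of mRNAs, was at 168 ± 38.0 CPM in mTOR-/- and 156 ± 10.7 CPM in WT libraries (SD, n = 3), and its log2 fold change was 0.10 (SE 0.16, edgeR adjusted p = 0.754). Without mTOR-/- replicate 1 this value was -0.02. Yeats4, a chromatin reader of acetylated histones, was at 57.0 ± 5.28 CPM in mTOR-/- and 62.3 ± 4.34 CPM in WT libraries (SD, n = 3), and its log2 fold change was -0.13 (SE 0.12, edgeR adjusted p = 0.558). The most abundant neighbour was Cct2, a subunit of the cytosolic chaperonin, at 512 ± 55.9 CPM in mTOR-/- and 606 ± 29.6 CPM in WT libraries (SD, n = 3), with a log2 fold change of -0.24 (adjusted p = 0.224, edgeR). Mdm2, the ubiquitin ligase of p53, had the lowest adjusted p of the neighbours (0.214, edgeR) at a log2 fold change of -0.20. Frs2, an adaptor of growth factor receptors, was at 0.27, Rab3ip, an exchange factor of Rab GTPases, at -0.30, Slc35e3, a solute carrier, at -0.15 and Nup107, a nucleoporin, at 0.12. The adjusted p of these 4 genes lay between 0.253 and 0.834 (edgeR).

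**Figure D4:**
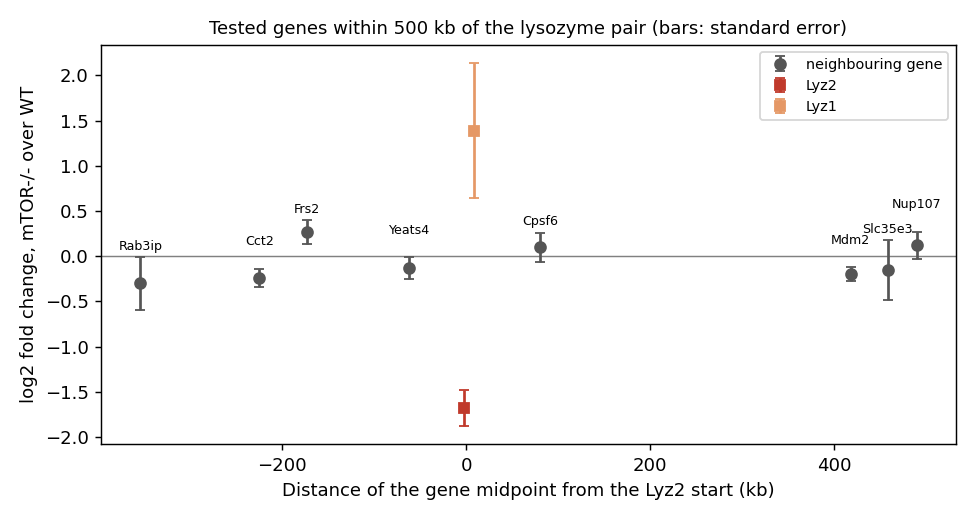
Log2 fold change of mTOR-/- over WT, with standard errors as bars, for Lyz2, Lyz1 and the 8 tested genes within 500 kb, plotted against the distance of the gene midpoint from the Lyz2 start in kb. The neighbours lie between -0.30 and 0.27, with Lyz2 at -1.68 and Lyz1 at 1.39.

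Genes that sense or break down peptidoglycan, the substrate of lysozyme, were partly higher in the mTOR-/- libraries. Of 16 listed genes 12 were tested, of which 3 were called higher and 0 lower (1.04% and 0.654% over all tested genes). The median log2 fold change was 0.47 against 0 over all tested genes. This list and those that follow were chosen with earlier results of these data known. Nod1, a cytosolic receptor of peptidoglycan fragments, was at 23.6 ± 4.66 CPM in mTOR-/- and 7.69 ± 0.697 CPM in WT libraries (SD, n = 3), and its log2 fold change was 1.62 (SE 0.20, edgeR adjusted p = 0.00287). Its call was kept whichever of the 6 libraries was omitted. Nod2, the receptor of muramyl dipeptide, rose from 3.72 ± 1.59 to 10.9 ± 1.10 CPM (SD, n = 3; adjusted p = 0.0362, edgeR), and Slc15a3, a transporter of such peptides, from 17.2 ± 5.43 to 35 ± 2.32 CPM (SD, n = 3; adjusted p = 0.0399, edgeR). Both calls were lost whichever of the 6 libraries was omitted, where the adjusted p reached 0.130 for Nod2 and 0.104 for Slc15a3 (edgeR). The 3 listed genes of highest CPM were not called. Tlr2, a receptor of bacterial lipoproteins, had a log2 fold change of -0.24 (adjusted p = 0.298, edgeR), Nlrp3, an inflammasome sensor, 0.57 (adjusted p = 0.0367, under 2-fold) and Naip5, a flagellin sensor, 0.48 (adjusted p = 0.142).

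Among 19 antibacterial granule and secreted proteins other than lysozyme, 17 were tested, of which 3 were called lower and 0 higher. Over all tested genes 0.654% were called lower and 1.04% higher. The median log2 fold change of the list was -0.46. The genes called by edgeR were Ltf, Ctsg and Prg2, and DESeq2 also called Epx. Ltf, the iron-binding lactoferrin of neutrophil granules, was at 4.40 ± 1.23 CPM in mTOR-/- and 18.1 ± 1.05 CPM in WT libraries (SD, n = 3), and its log2 fold change was -2.04 (SE 0.23, edgeR adjusted p = 0.00214). Ctsg, the granule protease cathepsin G, fell from 71.1 ± 15.6 to 27.2 ± 9.09 CPM (SD, n = 3; log2 fold change -1.39, adjusted p = 0.0207, edgeR). Prg2, the major basic protein of eosinophils, fell from 89.5 ± 4.25 to 42.0 ± 10.7 CPM (SD, n = 3; log2 fold change -1.09, adjusted p = 0.00899, edgeR). The call of Ltf was kept whichever of the 6 libraries was omitted, that of Ctsg in 4 and that of Prg2 in 5. The listed genes of highest CPM were Ctsd and Ctsb, lysosomal proteases, and Chil3, a chitinase-like protein of macrophages. Their log2 fold changes were -0.46 (adjusted p = 0.125), -0.68 (adjusted p = 0.0183, under 2-fold) and 0.50 (adjusted p = 0.0298, under 2-fold) by edgeR, all smaller than that of Lyz2. Also under 2-fold were S100a8, higher at 0.62, and Ngp, lower at -0.56 (adjusted p = 0.0305 and 0.0343, edgeR).

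Transcription factors of myeloid cells, several of which are known to act on lysozyme promoters, had a median log2 fold change of -0.03. All 20 listed genes were tested, and edgeR called 0, with 8 at an unadjusted p under 0.05 (21.2% over all tested genes), while DESeq2 called 1. Spi1, which encodes PU.1, was at 219 ± 18.3 CPM in mTOR-/- and 228 ± 0.948 CPM in WT libraries (SD, n = 3), and its log2 fold change was -0.06 (SE 0.09, edgeR adjusted p = 0.773), which was 0 without mTOR-/- replicate 3. Fos was at -0.01 (adjusted p = 0.978, edgeR) and 0.01 without mTOR-/- replicate 3. Jun, its AP-1 partner, was at 0.66 (adjusted p = 0.0161, edgeR), under 2-fold.

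Markers of other cells that such a culture can hold moved with the genotype as well. In bulk samples fewer cells of a type and less RNA per cell cannot be told apart. The 10 markers of mast cells and basophils had a summed level of 551 to 634 CPM in mTOR-/- against 1550 to 1630 CPM in WT. Cpa3 alone stood at 135 ± 21.8 CPM in mTOR-/- and 694 ± 69.7 CPM in WT libraries (SD, n = 3). The sums of the monocyte and macrophage, eosinophil and erythroid markers, given below, were lower in mTOR-/- as well. Those of the dendritic cell and neutrophil markers were higher. Of the 10 mast cell and basophil markers, 9 were tested, and Cma1 was at 0 in all libraries. Of the 9, 4 were called lower and 0 higher (0.654% and 1.04% over all tested genes). The lower genes were Cpa3, a protease of mast cell granules (log2 fold change -2.37, adjusted p = 9.53e-05, edgeR), Hdc, which makes histamine (-1.33, adjusted p = 0.000101), Mcpt8, a basophil protease (-1.09, adjusted p = 0.0353), and Kit, the receptor of stem cell factor (-1.05, adjusted p = 0.00139). The calls of Cpa3 and Hdc were kept whichever of the 6 libraries was omitted, that of Kit in 5 and that of Mcpt8 in 2. Gata2, a factor of mast cells and basophils and among the 3 most abundant of the list, was at -0.79 (adjusted p = 0.00973, edgeR, under 2-fold). Also not called were Prss34 at -0.57, Ms4a2 at -0.65 and Tpsb2 at -2.05 (adjusted p = 0.234, 0.457 and 0.207, edgeR). Fcer1a went the other way, at 0.45 (adjusted p = 0.61, edgeR).

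The 14 monocyte and macrophage markers summed to 3670 to 3960 CPM in mTOR-/- and 4140 to 4550 CPM in WT libraries. Of 12 tested, edgeR called 0, with 9 at an unadjusted p under 0.05 (21.2% over all tested genes), and DESeq2 called 1, Ly6c2. Their median log2 fold change was 0.13, and the most abundant were Lgals3, Itgam and Adgre1 at -0.46, -0.16 and -0.35 (adjusted p = 0.0557, 0.599 and 0.145, edgeR). An adjusted p under 0.05 without a call was found for 3 of the 12, with Cd14, a coreceptor of lipopolysaccharide, at 0.95 (adjusted p = 0.00128) and Csf1r, the receptor of M-CSF, at 0.50 (adjusted p = 0.0136) on the higher side and Ly6c2 at -0.999 (adjusted p = 0.0426) on the lower side, all by edgeR. The 12 dendritic cell markers summed to 765 to 899 CPM in mTOR-/- and 314 to 461 CPM in WT libraries, and Siglech was at 0. Of 9 tested, 3 were called higher and 0 lower (1.04% and 0.654% over all tested genes). The called genes were H2-Aa (log2 fold change 1.83, adjusted p = 0.0217), H2-Ab1 (1.56, adjusted p = 0.00287) and Ccr7 (1.26, adjusted p = 0.0314) by edgeR. The call of Ccr7 was lost whichever library was omitted, and that of H2-Aa in 2 of 6. The most abundant of these markers were Irf4 at 0.39 (adjusted p = 0.0325, under 2-fold) and Itgax at 0.92 (adjusted p = 0.0987). Flt3 and Clec9a were lower, at -0.46 and -0.39 (adjusted p = 0.832 and 0.77, edgeR), with means of 1.76 and 3.63 CPM. Zbtb46 was at 0.81 (adjusted p = 0.44, edgeR). Dpp4 was at 1.14 (adjusted p = 0.0507, edgeR), and DESeq2 called it as well.

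The 12 neutrophil markers summed to 2650 to 2950 CPM in mTOR-/- and 2310 to 2600 CPM in WT libraries, and all were tested. Ltf was called lower and Ly6g higher (log2 fold change 2.26, adjusted p = 0.0365, edgeR), and the call of Ly6g was kept with 1 of the 6 possible omissions of a library. The most abundant were Mmp8 at 0.34 (adjusted p = 0.180), S100a9 at 0.04 (adjusted p = 0.881) and Ngp at -0.56 (adjusted p = 0.0343, under 2-fold), by edgeR. Without mTOR-/- replicate 3 S100a9 was at -0.08. Higher and under 2-fold were S100a8 at 0.62 and Csf3r at 0.63 (adjusted p = 0.0305 and 0.0314, edgeR). The 6 eosinophil markers summed to 41.9 to 64.3 CPM in mTOR-/- and 93.4 to 112 CPM in WT libraries. Among 4 tested, edgeR called Prg2 lower, with Siglecf at -0.13 and Epx at -1.27 (adjusted p = 0.902 and 0.135, edgeR). DESeq2 called Epx as well (adjusted p = 0.0485). The 8 lymphocyte markers reached at most 4.34 CPM in sum, with Cd3e and Ncr1 at 0. Only Cd79a was tested, at 0.85 (adjusted p = 0.466, edgeR), and it was at 0.23 without mTOR-/- replicate 3. The 6 erythroid markers summed to 2.44 to 3.41 CPM in mTOR-/- and 6.68 to 10.6 CPM in WT libraries. Of the tested Hbb-bs and Hbb-bt edgeR called 0, both had an unadjusted p under 0.05 and DESeq2 called both. Without mTOR-/- replicate 3 edgeR also called Hbb-bt, at -1.95 (adjusted p = 0.0402). What part these other cells had in the level of Lyz2 or Lyz1 was not tested.

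**Figure D5:**
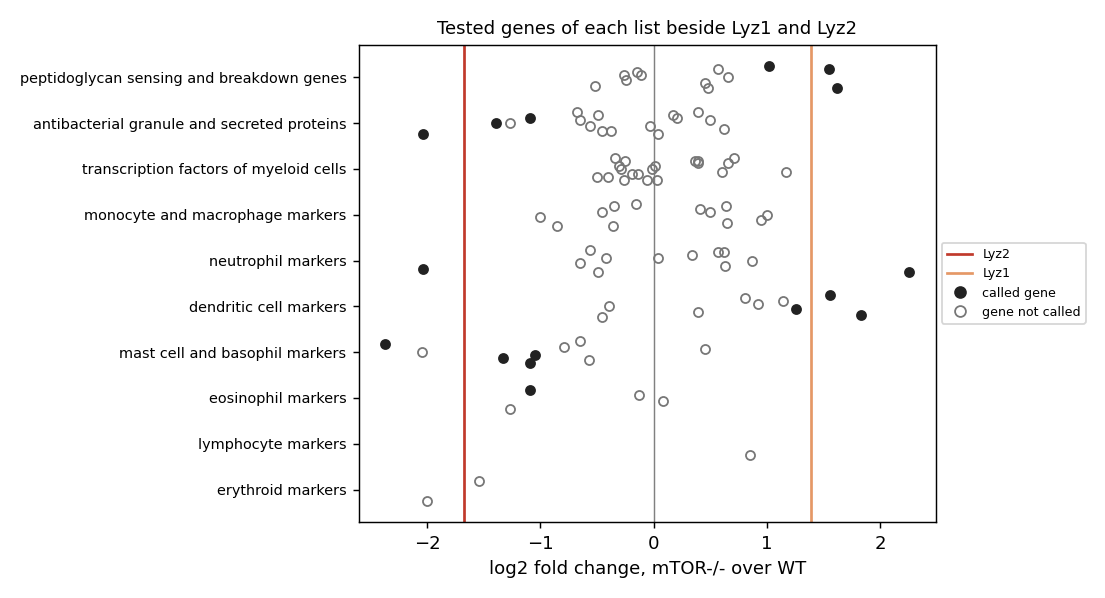
Log2 fold change of mTOR-/- over WT for the tested genes of each list, with filled points for called genes and vertical lines for Lyz2 (-1.68) and Lyz1 (1.39). Of the listed genes, Cpa3, Tpsb2, Ltf and Hbb-bs lie to the left of the Lyz2 line, while no monocyte marker or myeloid transcription factor does.

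The genes whose profile over the 6 libraries was most like that of Lyz2 were Tle1, Tmtc2, Serpina3g, Eps8 and C77080. Likeness was the root mean square difference of log2 CPM centred on each gene's own mean, and 9148 genes with a mean of at least 10 CPM were compared. The differences were 0.24, 0.26, 0.27, 0.27 and 0.27 on the log2 scale, where the median gene differed from Lyz2 by 0.88. Tle1, a transcriptional corepressor, had means of 7.06 CPM in mTOR-/- and 19.5 CPM in WT libraries, and Eps8, a regulator of actin, 36.6 and 124 CPM. All 5 were far below Lyz2 in CPM and had log2 fold changes of -1.77 to -1.32, a direction that follows from how they were chosen. For Lyz1 the nearest genes were Mir155hg, Rbfox2, Zc3h11a, Clec10a and Zfp513, at differences of 0.42 to 0.53 against a median of 1.08. Lyz1 itself, at means of 2.19 CPM in mTOR-/- and 0.83 CPM in WT libraries, was below the level asked of the compared genes. With so few counts, its larger differences cannot be set against those of Lyz2.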

How the data were processed

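The authors deposited raw read counts by gene and FPKM values for 3 WT and 3 mTOR-/- libraries. The paper's methods name Bowtie2 on mm10 and HTSeq, while the submitters' processing notes name HISAT2 2.0.4, StringTie 1.3.0 and the builds GRCm38.p4 and mm9. The strand setting of the counting is not given in the sources used here. Authors' comparison columns (mean FPKM per group, log2 ratio, p-values) and 24 repeated per-sample columns in the other tables were not used.

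Counts were fitted with edgeR 4.0.16 in R 4.3.3 (filterByExpr with a minimum of 10 counts, TMM, quasi-likelihood F test, Benjamini-Hochberg adjustment over all tested genes, adjusted p under 0.05 and fold of at least 2). On simulated data with 200 of 12537 genes changed by 2 on the log2 scale, 85.5% were recovered and 3.39% of calls were false. Smaller changes were not simulated, nor a library that deviates from its group, so these rates do not carry over to such calls. Log2 CPM used a prior count of 2. P-values measure the spread between these libraries, whose origin from separate mice is stated only as n = 3.

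The members and lists were chosen with earlier results of these data known. Named were the members, Mtor, tested genes within 500 kb, the 3 most abundant and all called genes of each list, and the 5 genes most like each member. Lyz1 and Lyz2 got no p-value. Ftl1, Gpnmb, Eef1a1 and other genes outside that rule were named after their values were seen. Transcripts were aligned with Biopython 1.88 from GENCODE M21, and upstream windows are RefSeq's, which matched both members. Alternatives were DESeq2 1.42.0, RLE and upper-quartile factors, other filters, no fold threshold, FPKM with a pseudocount of 1, added counts, a window of 1000 kb, each library left out and the replicate number as a block. Sequencing reads and Cre were not analysed here. A gene of the transcription factor list is not reported here by name.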

Additional observations from a re-analysis of the deposited data

How the results depend on the processing

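The log2 fold change of Lyz2 moved by less than the spread between replicates in every alternative run and stayed between -1.88 and -1.54 when each library was left out. That of Lyz1 lay between 0.96 and 2.46 over the same fits, the highest without WT replicate 2, was 0.73 on the log2(FPKM + 1) scale, and was -1.68 with both genes added. It could not be fitted with at least 10 counts in every library. The Lyz1 share lay between 0.150% and 0.267% in mTOR-/- and between 0.0130% and 0.0287% in WT libraries when each library of the group was left out. The number of neighbours called was 0 in every alternative run, the 1000 kb window included. With 1.69% of all tested genes called by edgeR, a count of 0 among so few genes says little. The 212 called genes became 357 with DESeq2 and 507 without a fold threshold, and all 212 were among both. They became 114 to 229 when each library was left out, with 128, 114 and 120 without WT replicates 1, 2 and 3. The 14 called genes of the lists became 20 with DESeq2 and 26 without a fold threshold. They became 8 to 11 when each library was left out, with 8 without mTOR-/- replicate 1 or WT replicate 1 and 9 without WT replicate 3.

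Same-numbered libraries did not deviate together (r = -0.076, -0.025 and -0.061 across genes), so no pairing by number was seen. With 3 libraries per group a weak pairing could go unseen. With the replicate number as a block, 164 genes were called, 156 of them among the 212, and 11 list genes, and the log2 fold changes were -1.66 for Lyz2 and 1.58 for Lyz1.

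Of 670 values of the 56 other genes named by that rule, 11 changed sign, all of genes that were not called. Without mTOR-/- replicate 1 Cpsf6 was at -0.02, without mTOR-/- replicate 2 Siglecf was at 0.17, and without WT replicate 2 S100a9 was at -0.07. Without mTOR-/- replicate 3 Slc35e3 was at 0.15, Nup107 and Spi1 at 0, Fos and Siglecf at 0.01 and S100a9 at -0.08. Without WT replicate 1 Fos was at 0.02 and Siglecf at 0.16. With each library left out the ranges were -0.51 to 0.15 for Slc35e3, 0 to 0.21 for Nup107, -0.02 to 0.27 for Cpsf6, -0.12 to 0 for Spi1, -0.05 to 0.02 for Fos, -0.08 to 0.10 for S100a9 and -0.73 to 0.17 for Siglecf. The cause of these changes was not tested. With 4 to 43 counts per library, the level of Lyz1 is limited by depth.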
